A study of Mus musculus with 4 samples.

Results

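Microglia are the resident macrophages of the brain. In the healthy brain they carry a characteristic set of surface receptors and signalling adaptors, often called the homeostatic signature, through which they survey the tissue, sense nucleotides and chemokines from neurons, and receive the growth factor signals they need to survive. Loss of this signature, with P2ry12 and Tmem119 transcripts falling, is a known feature of activated microglia in mouse models of injury and neurodegeneration. The 9 genes examined here are P2ry12, P2ry13, Cx3cr1, Csf1r, Trem2, Tyrobp, Siglech, Tmem119 and Aif1. They were taken from knowledge of this cell type, and every array probe whose transcript accession mapped to one of them was used. This gave 12 probes of 56605, and all 9 genes were represented among the 22911 genes that could be named on the array.

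Transcripts were measured on 4 Agilent 1-colour arrays, 1 per sample, using Cy3 label and RNA of the dorsal hippocampus, which had been collected from females once behavioural testing was finished. The 20-fold iodine group held replicates 2 and 3, from the group labelled as having a 20-fold iodine excess, and the control group held replicates 2 and 3. Iodine is the raw material of thyroid hormone, and the study asked how too much of it affects the brain. The labels give no strain, age, duration or route of iodine intake, do not say when it was taken or whether by the sampled mice themselves, and leave unsaid whether the replicates came from different mice, so the p-values reflect the variation among these 4 samples, part of which may be technical. The arrays shared a single slide, with the iodine samples in positions 3 and 4 and the controls in positions 1 and 2, so position and group cannot be told apart. Whole hippocampal tissue was used, so fewer microglia and less RNA per microglial cell cannot be told apart.

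All 12 probes were well above background (the scanner software's detection call) on all 4 arrays, so no member was lost to the filter on dim probes. The markers that define microglia were therefore present in every sample. Signals below are log2 values of the background-subtracted signal after each array was set to the same 75th percentile. A probe's signal also depends on its sequence, so differences are given between arrays for 1 probe. Where a gene has 2 probes, brighter and dimmer only tell them apart, and a summed signal over a list is weighted by its brightest probes.

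The iodine and control arrays showed no change of the homeostatic set that passed the test. Over the 12 probes the median log2 difference, iodine minus control, was 0.01, with 8 probes higher and 4 lower, against a median of 0.01 over all 38231 probes tested. None of the 12 probes passed limma's test at a Benjamini-Hochberg adjusted p of 0.05 (smallest adjusted p = 0.587, P2ry12), and none had an unadjusted p under 0.05. Among all probes tested, 0% passed the adjusted threshold and 9.03% (3453) had an unadjusted p under 0.05. The groups' arrays were fully separated for 3 of the 12 probes (25%), 2 higher and 1 lower in iodine, against 41.6% of all probes tested, 23.2% higher and 18.4% lower. The 95% confidence intervals of the fold, iodine over control, ran from 0.672 at the lowest to 1.52 at the highest. With 2 arrays per group, a change inside a probe's own interval was not excluded. The intervals are not adjusted for the number of probes.

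**Figure D1:**
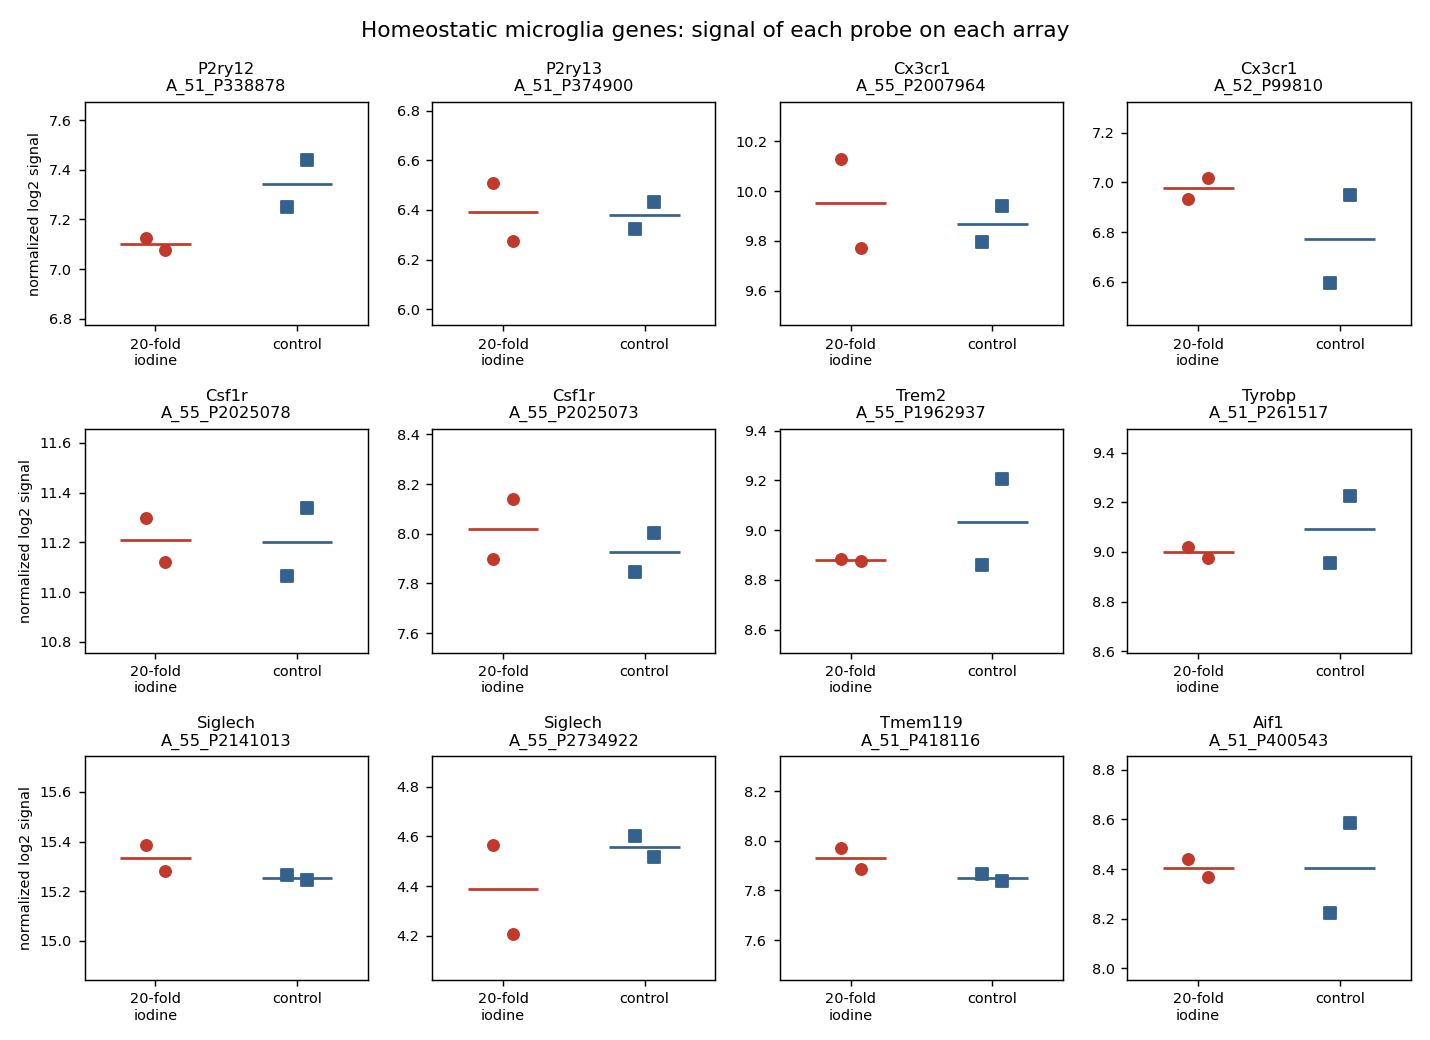
Normalized log2 signal (vertical axis) of each of the 12 probes on each array, with 20-fold iodine arrays as circles at the left of each panel, control arrays as squares at the right, replicate 2 left of replicate 3, and the group mean as a bar (n = 2 per group). Every panel spans the same log2 range. The groups separate for P2ry12, Tmem119 and 1 of the Siglech probes, and overlap for the rest.

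Of the nucleotide receptors, P2ry12 was lower on both iodine arrays without passing the test, and P2ry13 differed by about 0. P2ry12 encodes the ADP receptor that guides microglial processes toward sites of ATP release. Its log2 signals were 7.13 and 7.08 in the iodine arrays, against 7.25 and 7.44 in the control arrays. Both iodine arrays lay below both controls, and the difference was -0.24 ± 0.10 (SE, n = 2 per group), a fold of 0.846 (95% confidence interval 0.698 to 1.02) that did not pass (limma adjusted p = 0.587). This was the largest difference in size among the 12 probes, yet 19.3% of all probes tested had a larger one. Without control replicate 3, the higher control, it was -0.15, and with normexp background correction -0.08. P2ry13, a related ADP receptor, had 6.51 and 6.28 in the iodine arrays, against 6.33 and 6.43 in the control arrays. Here the iodine arrays lay on either side of both controls, and the difference was 0.01 (95% confidence interval -0.30 to 0.33), turning to -0.01 with quantile normalization or median scaling.

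P2ry12 and P2ry13 both lie on mouse chromosome 3, inside the span of the larger gene Med12l. Their promoters are shown because these related receptor genes share a locus, yet P2ry12 had the largest difference of the set and P2ry13 one near 0 (a difference between the pair was not tested). The RefSeq windows run from 250 bases before to 50 bases after the transcript start, on build GRCm38.p6, printed 5′ to 3′ on the gene's own minus strand. Capitals mark matches, on either strand, to the letters GAGGAA (the PU box bound by the myeloid factor PU.1, encoded by Spi1) or AGGTCA (the half-site bound by thyroid hormone receptors and other nuclear receptors).
P2ry12, chr3:59262936-59263235: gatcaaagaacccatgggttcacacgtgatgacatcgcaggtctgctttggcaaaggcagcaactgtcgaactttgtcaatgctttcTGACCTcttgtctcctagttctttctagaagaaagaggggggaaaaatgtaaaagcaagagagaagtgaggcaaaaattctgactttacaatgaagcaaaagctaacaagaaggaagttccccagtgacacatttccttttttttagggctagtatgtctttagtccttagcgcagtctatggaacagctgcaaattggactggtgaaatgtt
P2ry13, chr3:59210833-59211132: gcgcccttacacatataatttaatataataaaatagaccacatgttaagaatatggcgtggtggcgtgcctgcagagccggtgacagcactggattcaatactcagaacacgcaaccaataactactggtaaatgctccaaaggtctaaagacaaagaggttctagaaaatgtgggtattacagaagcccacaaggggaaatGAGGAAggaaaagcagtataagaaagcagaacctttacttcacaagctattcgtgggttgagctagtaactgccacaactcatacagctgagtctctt
The P2ry12 window held 1 AGGTCA match and no GAGGAA match, and the P2ry13 window held 1 GAGGAA match and no AGGTCA match. Windows were listed for 6 of the 9 members, all but Tmem119, Csf1r and Tyrobp. GAGGAA occurred in 4 of these 6 (Aif1, P2ry13, Siglech and Trem2), against 28.3% of 32851 promoter windows, and AGGTCA in 3 of 6 (Aif1, P2ry12 and Trem2), against 16.3%. A match is a description of the letters only, and factor binding was not measured.

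The receptors for neuronal and growth factor signals did not differ between the groups beyond the spread of the arrays. Cx3cr1 encodes the receptor for fractalkine, a chemokine displayed by neurons. Its brighter probe had 10.13 and 9.77 in the iodine arrays, against 9.80 and 9.94 in the control arrays, a difference of 0.08 (95% confidence interval -0.34 to 0.50). The iodine arrays were the highest and the lowest of the 4, and the difference was -0.10 without iodine replicate 2. Its dimmer probe had 6.93 and 7.02 in the iodine arrays, against 6.60 and 6.95 in the control arrays. On this probe control replicate 2 stood below the other 3 arrays, and the difference was 0.20 (95% confidence interval -0.20 to 0.60). Without control replicate 3 it was 0.38, and without control replicate 2 it was 0.02.

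Csf1r encodes the receptor for CSF1 and IL-34, on which microglial survival depends. Its brighter probe had log2 signals of 11.30 and 11.12 in the iodine arrays, against 11.07 and 11.34 in the control arrays. The controls were the lowest and the highest of the 4 arrays, so the difference of 0.01 (95% confidence interval -0.36 to 0.38) has no settled direction, and it was -0.02 with median scaling and -0.06 with normexp. The dimmer probe of Csf1r had 7.90 and 8.14 in the iodine arrays, against 7.85 and 8.003 in the control arrays, a difference of 0.09 (95% confidence interval -0.25 to 0.43), which was -0.03 without iodine replicate 3. The genes of the matching ligands, Csf1, Il34 and Cx3cl1, differed by -0.14 ± 0.13, 0.05 ± 0.08 and 0.02 ± 0.08 (SE) on their brightest probes. The probes of Csf1 differed among themselves, with 1 at -0.45, and the other Il34 probe was at -0.01. Control replicate 3 had the highest signal of Csf1.

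Trem2 and its partner Tyrobp were highest on the same array, control replicate 3. TREM2 is a lipid-sensing receptor of microglia, and TYROBP, also called DAP12, is the adaptor through which it signals. Trem2 had 8.89 and 8.88 in the iodine arrays, against 8.86 and 9.21 in the control arrays. Tyrobp had 9.02 and 8.98 in the iodine arrays, against 8.96 and 9.22 in the control arrays. In both genes the 2 iodine arrays nearly coincided and lay between a lower control replicate 2 and a higher control replicate 3. The differences were -0.15 (95% confidence interval -0.54 to 0.23) for Trem2 and -0.09 (-0.42 to 0.24) for Tyrobp, and without control replicate 3 they were 0.02 and 0.04. Siglech, a sialic acid-binding receptor that also signals through TYROBP, had 2 probes with opposite signs. The brighter one had 15.38 and 15.28 in the iodine arrays, against 15.26 and 15.24 in the control arrays, with both iodine arrays above both controls and a difference of 0.08 (95% confidence interval -0.15 to 0.31). The dimmer one had 4.57 and 4.21 in the iodine arrays, against 4.60 and 4.52 in the control arrays, a difference of -0.17 (95% confidence interval -0.57 to 0.23) that was 0.01 without iodine replicate 3. The groups overlapped on the dimmer probe, and the mean of both probes gave -0.05. Of all probes tested, 0.167% were brighter than the brighter probe, and 71.9% were brighter than the dimmer one. What the 2 probes bind could not be examined, so it is not known whether the brighter one reports Siglech alone.

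The remaining members are structural or surface markers widely used to stain microglia. Tmem119, a membrane protein that separates microglia from infiltrating macrophages in the mouse brain, had 7.97 and 7.89 in the iodine arrays, against 7.87 and 7.84 in the control arrays. Both iodine arrays lay above both controls, but the difference of 0.08 ± 0.08 (SE, n = 2 per group) was within its error (limma adjusted p = 0.818). Aif1 encodes IBA1, the actin-binding protein used as a general microglial stain. It had 8.44 and 8.37 in the iodine arrays, against 8.22 and 8.58 in the control arrays, with a difference of 0.00 (95% confidence interval -0.40 to 0.40). The iodine arrays again lay between the controls, and the sign turned with median scaling (-0.02) and normexp (-0.06).

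**Figure D2:**
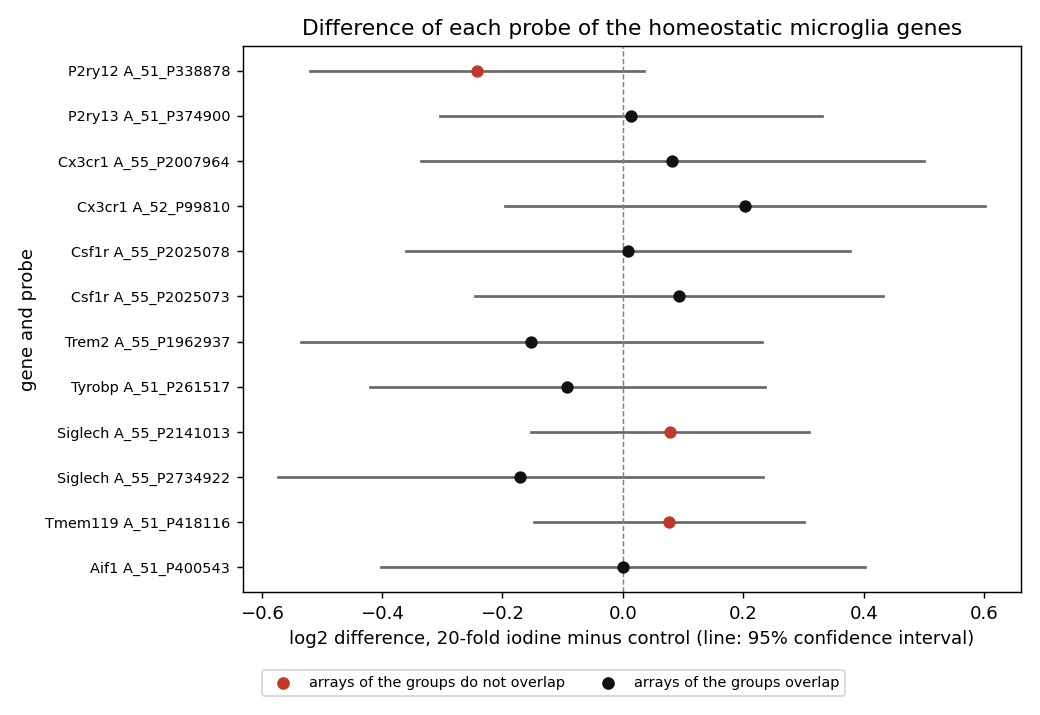
Log2 difference, 20-fold iodine minus control (horizontal axis), of each of the 12 probes (rows), with its 95% confidence interval from the limma fit as a line and points in red where the arrays of the groups do not overlap (n = 2 per group). All 12 intervals include 0, and the P2ry12 interval ends nearest to excluding it, at 0.04.

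Arrays of the same group lay on opposite sides of the members' means. Set against each probe's own 4-array mean, the median deviation over the 12 probes was 0.07 and -0.07 in iodine replicates 2 and 3, and -0.09 and 0.06 in control replicates 2 and 3. Control replicate 3 had the highest signal for 5 of the 12 probes and lay above the probe's mean for 10, and control replicate 2 had the lowest for 6. Leaving out control replicate 3 left 2 probes lower in iodine, leaving out control replicate 2 left 7, and leaving out iodine replicate 2 left 8, against 4 with all arrays. With median scaling 7 of the 12 were lower. The balance of directions among the members depended on single arrays and on the scaling.

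**Figure D3:**
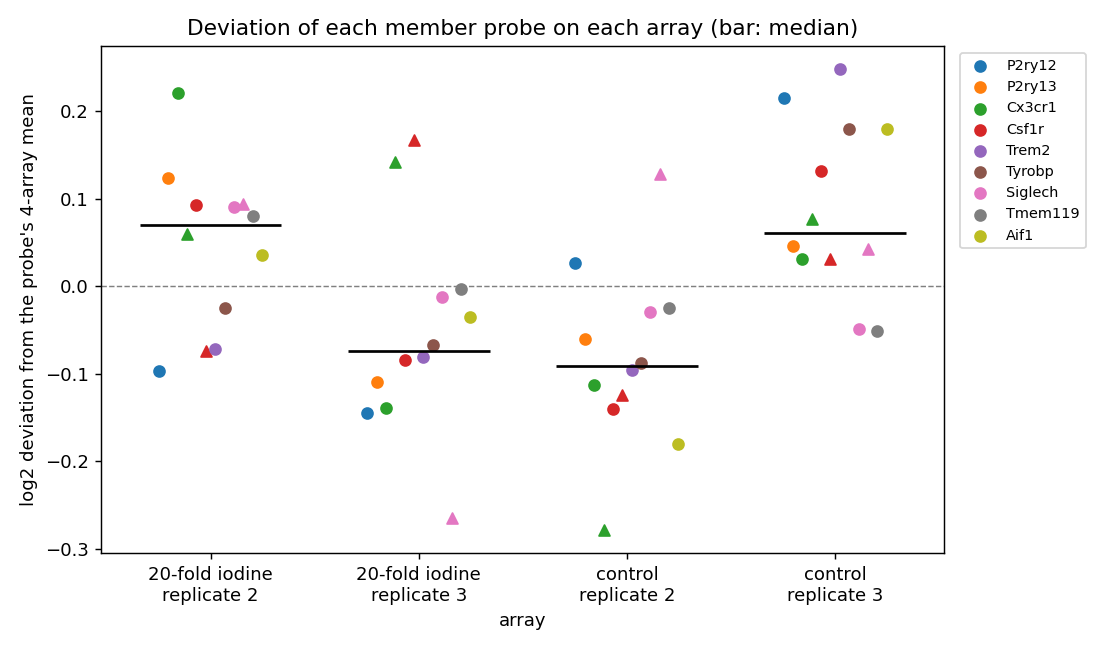
Log2 deviation of each member probe from its own 4-array mean (vertical axis) on each array (horizontal axis), coloured by gene, with triangles for the dimmer probe of a gene that has 2 and a bar at the median of the 12 probes. The medians are 0.07 and -0.07 in the iodine arrays and -0.09 and 0.06 in the control arrays, so neither group stands above the other.

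Other genes of microglial biology, each by its brightest probe, also gave no call. Over all 16794 genes tested in this way 0 passed limma's adjusted threshold (0%, smallest adjusted p = 0.667), 7.38% had an unadjusted p under 0.05, 39.9% did not overlap between the groups and 54.3% were lower in iodine. Of 15 other microglia identity genes 5 were higher and 10 lower in iodine, with a median of -0.04, and none had an unadjusted p under 0.05. In this list Sall1, a transcription factor that maintains microglial identity, differed by 0.12 ± 0.10 (SE), Fcrls, an Fc receptor-like gene, by 0.08 ± 0.08, and Ptprc, the leukocyte marker CD45, by -0.19 ± 0.13. With 1 array left out the list's median ran from -0.10 without control replicate 2 to 0.06 without control replicate 3, and it was 0.04 without iodine replicate 3, -0.08 without iodine replicate 2 and 0.01 with normexp. Of 9 complement and lysosome genes 3 were higher and 6 lower, with a median of -0.06. C1qa and C1qc, chains of the complement initiator C1q, differed by 0.10 ± 0.13 and -0.03 ± 0.09, and Cd68 and Laptm5, lysosomal membrane proteins of phagocytes, by -0.18 ± 0.11 and -0.18 ± 0.10. Without control replicate 3 the median was 0.05, and without control replicate 2 it was -0.14, with all 9 genes lower. It was -0.02 when either of the iodine arrays was left out.

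Of 7 measured genes of TREM2 and TYROBP signalling 5 were higher and 2 lower, with a median of 0.01, and Card9 was not measured above background. Syk, the kinase that binds phosphorylated TYROBP, differed by 0.15 ± 0.08 (SE), Plcg2, a phospholipase downstream of it, by 0.10 ± 0.10, and Cd33, an inhibitory sialic acid receptor, by -0.25 ± 0.21. Leaving out control replicate 3 gave a median of 0.16 and leaving out iodine replicate 3 gave 0.05. The median was -0.05 without control replicate 2 and -0.02 without iodine replicate 2, and it was also below 0 with normexp and with median scaling. Among 7 ligand and nucleotide enzyme genes, Nt5e, the ectonucleotidase CD73 that makes adenosine, had log2 signals of 4.20 and 4.54 in the iodine arrays, against 4.72 and 4.83 in the control arrays. Its difference was -0.41 ± 0.14 and it alone in that list had an unadjusted p under 0.05 (limma adjusted p = 0.667). Entpd1, the ectonucleotidase CD39 that degrades ATP and ADP, differed by 0.20 ± 0.08, but its other probe gave -0.49.

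Myeloid transcription factors and TGF-beta signalling, which maintain microglial identity, showed no call either. Of 5 measured myeloid transcription factor genes 1 was higher and 4 lower (median -0.06, ranging from -0.19 without iodine replicate 2 to 0.10 without iodine replicate 3). Runx1, well above background on 1 of 2 iodine arrays and both controls, differed by -0.56 ± 0.15 (SE) and Irf8 by 0.08 ± 0.09. The Spi1 probe was not well above background on any of the 4 arrays. Of 7 TGF-beta genes 4 were higher and 3 lower, with a median of 0.07. It was 0.01 without control replicate 3 and -0.01 without control replicate 2 or iodine replicate 2. With the mean of each gene's probes it was 0.13, with 5 genes higher and 2 lower. Tgfbr1, a receptor gene, differed by -0.22 on its brightest probe, while its other probe gave 1.02. Tgfb1, the ligand, had 4.73 and 4.75 in the iodine arrays, against 4.45 and 4.56 in the control arrays, a difference of 0.24 ± 0.08 with another probe at 0.23. Itgb8, the integrin subunit that helps to activate latent TGF-beta, differed by 0.40 ± 0.15 (limma adjusted p = 0.667 for Tgfb1 and 0.678 for Itgb8).

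Genes induced in disease-associated microglia, the state in which homeostatic genes are lost, gave no call either. Of 16 measured members 5 were higher and 11 lower, from -1.24 for Ch25h to 0.53 for the chemokine gene Ccl4, which was well above background on 1 array of each group. The median was -0.02, ranging from -0.04 without control replicate 3 to 0.02 without iodine replicate 2. Clec7a was named on no probe. Axl, a receptor for apoptotic cells, differed by -0.01 ± 0.07 (SE), Lpl, lipoprotein lipase, by -0.15 ± 0.11, and Gpnmb by 0.24 ± 0.15. Other probes of Axl and Lpl gave -0.22 and 0.12. An unadjusted p under 0.05 was seen for 3 of the 16, Ch25h, Cd52 and Itgax, against 7.38% of all genes tested. All 3 were lower in iodine, and each had a limma adjusted p of 0.667. Itgax passed the filter on dim probes through the control arrays alone, so its direction and p-value are no support for a change. Ch25h, which makes 25-hydroxycholesterol, had 3.07 and 3.89 in the iodine arrays, against 4.49 and 4.94 in the control arrays (difference -1.24 ± 0.33). Cd52, a small surface glycoprotein of leukocytes, had 6.85 and 6.84 in the iodine arrays, against 7.10 and 7.08 in the control arrays (difference -0.25 ± 0.07). Itgax, the integrin CD11c, was not well above background on either iodine array, and the mean of the controls was at least 1.46-fold higher.

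**Figure D4:**
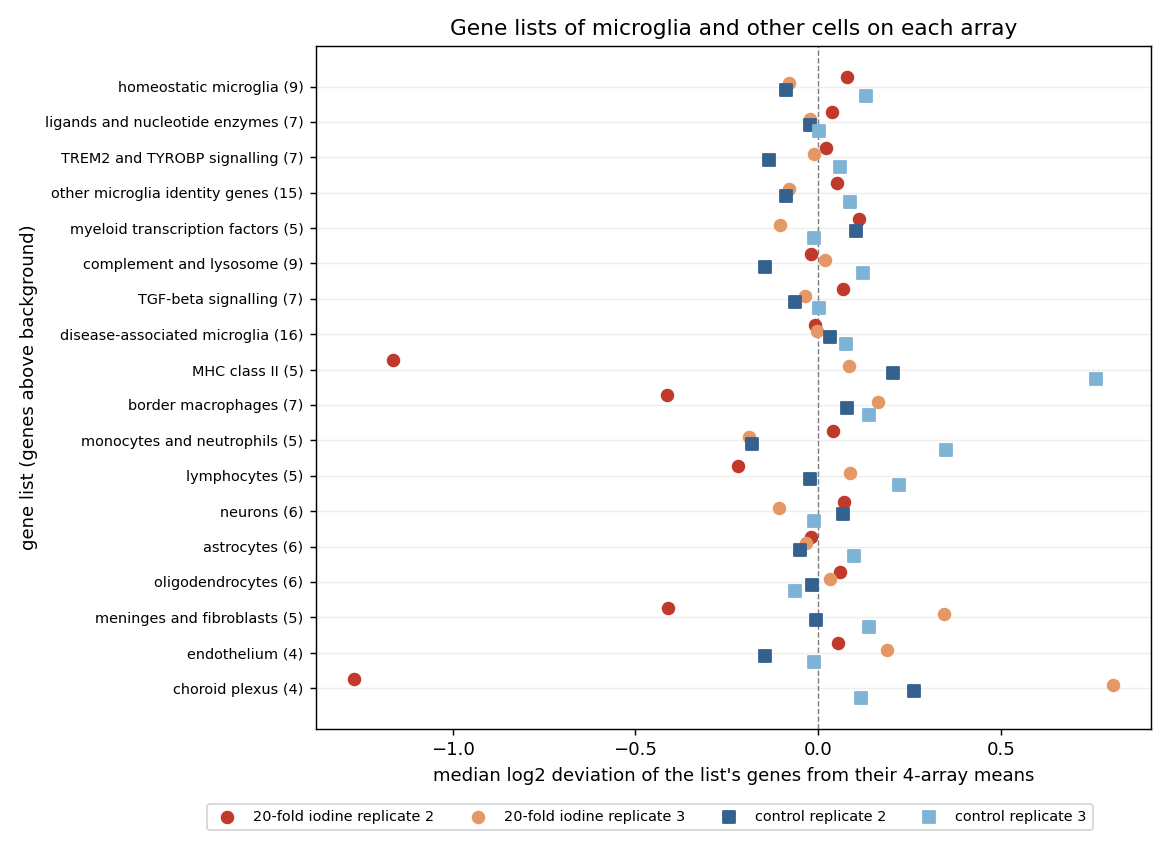
Median log2 deviation of the genes of each list from their own 4-array means (horizontal axis) on each array, with circles for 20-fold iodine and squares for control, lists in rows and the number of genes above background in brackets. The medians of the first 8 lists, which hold microglial and related genes, lie between -0.14 and 0.13 on all arrays, while MHC class II genes run from -1.16 on iodine replicate 2 to 0.76 on control replicate 3 and choroid plexus genes from -1.27 on iodine replicate 2 to 0.81 on iodine replicate 3.

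Among markers of other cells, those of the brain's borders and of blood spread more widely over the arrays than the microglial lists, while neuron, astrocyte and oligodendrocyte lists did not. The medians of those 3 lists lay between -0.11 and 0.10 on all arrays. Their single genes differed in both directions, from -0.31 for Mobp to 0.40 for Slc17a7 (limma adjusted p = 0.667 for both). The medians of monocyte and neutrophil genes ran from -0.19 to 0.35 and those of lymphocyte genes from -0.22 to 0.22. Both lists hold probes near background. The first includes a gene detected on 1 of 2 iodine arrays, and the lymphocyte list includes genes that passed the filter through the controls alone. With detection required on all 4 arrays, 3 lymphocyte genes remained, and their median difference was 0.09, against -0.03 before. All 4 endothelial genes were higher in iodine (median 0.17, ranging from 0.12 without control replicate 2 to 0.27 without iodine replicate 2). Without iodine replicate 3, 3 of them were higher and 1 lower. All 5 MHC class II genes were lower in iodine (median -0.91, ranging from -1.62 without iodine replicate 3 to -0.37 without iodine replicate 2). Of these, H2-Aa and Ciita were well above background on 1 of 2 iodine arrays. With detection required on all 4 arrays, 3 genes remained (median -0.91), and with normexp the median of the 5 was -0.42. Their summed normalized signals were 195 and 458 in the iodine arrays, against 444 and 670 in the control arrays. Border macrophage genes were lower in 6 of 7 measured members (median -0.25, ranging from -0.65 without iodine replicate 3 to -0.05 without iodine replicate 2). Their median was also -0.05 with normexp. Mrc1, the mannose receptor, was at -0.25 ± 0.42 (SE), and Lyve1 was not above background on any array. Choroid plexus genes had summed signals of 7944 and 40249 in the iodine arrays, against 24302 and 21463 in the control arrays, and meningeal genes 2102 and 3336, against 2942 and 3613 in the controls. The members' own summed signals were 48228 and 44683 in the iodine arrays, against 44112 and 44438 in the control arrays. They came mostly from the brighter Siglech probe, whose target could not be examined. Of the blood cell markers, Ccr2, Ngp, Ltf, Retnlg, Cd3g, Cd8a and Cd79a were not above background on any array. Iodine replicate 2, lowest in these border and choroid plexus lists, was not the lowest array for any of the 12 member probes. The part of these other cells in the values of the members was not tested.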

How the data were processed

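Per the file headers, the authors extracted spot values with the Agilent Feature Extraction software, version 12.1.1.1. The main values are its deposited intensity after background subtraction and spatial detrending (the processed signal), and the arrays were not scaled to each other before deposit. The authors' deposited detection (well above background), saturation and outlier flags are other columns. Outlier spots (47 to 70 per array) were left out, log2 values of a probe's spots were averaged, and arrays were aligned at the 75th percentile of their non-control probes (the mean percentile was added back). The 75th percentiles were 150 and 144 in the iodine arrays and 159 and 154 in the control arrays, Pearson's r between arrays over kept probes was 0.994 to 0.995 (probes are not independent replicates), and 0 spots were saturated. Of 56605 probes, 38231 were kept, each detected on 2 or more of the 4 arrays. Genes were named by unversioned RefSeq accession through the GRCm38.p6 gene list of RefSeq, which named 32994 probes, and the array headers name an older build, so no probe coordinates are given. Iodine minus control was fitted per probe with limma 3.58.1 (lmFit, eBayes, two-sided) in R 4.3.3 (files were read with data.table, version 1.17.8), adjusted by Benjamini-Hochberg over all kept probes, and tested on simulated data. Gene lists were described per gene by the brightest kept probe.

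Where both arrays of a group missed the detection call, the difference is a bound, taken against the dimmest detected probe of each array, or against the probe's own signal where that is higher. All 9 members were named with every probe. From each list of microglial biology the 2 genes with the smallest unadjusted p and defining genes were named, and Itgax was added after its value was seen. Lists of other cells were given by medians, counts or summed levels, with few genes named. Some genes that this rule would name are not reported here. Members and lists were chosen from textbook knowledge with earlier results of these data known, so no list is independent support for a direction. Alternatives covered normexp background correction (offset 50, on the deposited median intensity of spot and background), quantile and median scaling, the filter, the variance model, gene rows, a replicate block and each array left out. Slide as a block could not be fitted, since all arrays lay on 1 slide.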

Additional observations from a re-analysis of the deposited data

How the results depend on the processing

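None of the 150 member differences over 13 other settings passed the adjusted threshold (smallest adjusted p = 0.495, for P2ry12 with an intensity trend), and 18 changed sign. P2ry12 stayed below 0 in all 13 settings (-0.34 to -0.08) and Tmem119 above 0 (0.03 to 0.12). The dimmer Cx3cr1 probe stayed above 0 in its 11 (0.02 to 0.38). Not every setting could turn a sign. The filters, variance model and replicate block left every difference as it was, as did gene rows for genes with 1 probe. The arrays of the groups were fully separated for P2ry12 and Tmem119, so leaving 1 array out could not turn their signs. Only normexp, quantile normalization and median scaling could do so for these genes. Aif1 was -0.064 with normexp and -0.025 with median scaling, the brighter Csf1r probe -0.065 and -0.017, P2ry13 -0.0081 with quantile normalization and -0.011 with median scaling, and Siglech -0.046 as the mean of its probes. With 1 array left out, the ranges were -0.18 to 0.18 for Aif1, -0.13 to 0.14 for the brighter and -0.027 to 0.21 for the dimmer Csf1r probe, -0.10 to 0.13 for P2ry13, -0.10 to 0.26 for the brighter Cx3cr1 probe, -0.32 to 0.020 for Trem2, -0.23 to 0.042 for Tyrobp and -0.35 to 0.0091 for the dimmer Siglech probe. An unadjusted p under 0.05 was seen for P2ry12 with the intensity trend, the dimmer Cx3cr1 probe without control replicate 3 and the dimmer Siglech probe without iodine replicate 2. The members' median ran from -0.09 to 0.07 and the number of lower probes from 2 to 8 with 1 array left out, and 7 probes were lower with median scaling. Over all probes, 25 passed with normexp and 53 with an intensity trend, none of them a member, and the cause was not tested. Probes whose groups did not overlap numbered 26863 with no filter, where more probes were tested, and 26355 to 27945 with 1 array left out, where a group holds 1 array. With 1 row per gene, where fewer rows were tested, 1240 (brightest probe) or 1253 (mean of probes) had an unadjusted p under 0.05 and 6693 or 6683 did not overlap. With 1 array left out, the spread of the lone array is borrowed from the other group. The replicate numbers showed no sign of pairing the samples (correlation of replicate differences over probes -0.02), though this cannot exclude a pairing. With the replicate block 3031 probes had an unadjusted p under 0.05, 0 passed and no member call changed. With 2 arrays per group, the number of arrays limits the precision of every difference.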

Other observations

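The 3 genes whose deviations over the 4 arrays lay nearest to those of P2ry12 were Alg13, Taf5 and Fancm, with mean absolute differences from it of 0.004, 0.008 and 0.010 on the log2 scale among 16793 other genes. None of the 3 is in the lists used here. With 4 arrays and this many genes searched, close matches can arise without any link, and a link to P2ry12 was not tested.

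Med12l, the gene that spans P2ry12 and P2ry13, had 3 probes above background. Of these, 2 were well above it on all 4 arrays and had log2 differences, iodine minus control, of 0.25 ± 0.11 and -0.16 ± 0.12 (SE, n = 2 per group), neither past limma's threshold (adjusted p = 0.609 and 0.730). The other probe was not well above background on either control array, and the mean of the iodine arrays was at least 1.27-fold higher (limma adjusted p = 0.518). It passed the filter on dim probes through the iodine arrays alone, so its direction and p-value are no support for a change. The P2ry12 difference of -0.24 had the same sign as 1 of the 2 host gene probes detected on all 4 arrays, and the opposite sign to the other.

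Fcer1g, the Fc receptor gamma chain and like Tyrobp an adaptor of myeloid receptors, had log2 signals of 8.74 and 8.64 in the iodine arrays, against 8.49 and 8.88 in the control arrays. Ctss, a lysosomal protease of microglia, had 11.05 and 10.81 in the iodine arrays, against 10.78 and 11.22 in the control arrays. In both genes, as in Aif1 and the brighter Csf1r probe, the 2 controls were the lowest and the highest of the 4 arrays. Not all genes of their lists had this order. Plcg2 was highest on iodine replicate 2, and Laptm5 was lower on both iodine arrays than on either control.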
